A study of Mus musculus with 32 samples.

Results

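The genes described here are 38 that encode structural proteins of the sarcomere, the contractile unit of striated muscle: proteins of the Z-disc, of the M-band and of the thin filament. They were chosen by gene symbol from a table of 33397 mouse genes, and all 38 were among the 22071 genes that passed a filter on low values and entered the tests. RNA was sequenced from the gastrocnemius (GAS) muscle of C57BL/6 mice (C57BL/6J in the study's methods) after transection of the sciatic nerve, which removes the motor supply of this muscle. The time points were 0, 1, 3, 5, 7, 14, 21 and 28 d post denervation, and 4 samples for each of them make up the 32 samples. All groups share the strain and the muscle, the labels name no altered gene, and the study's methods describe young male mice denervated on the left side. The labels list transection for every sample, the 0 d samples included, while the deposited table names the 0 d columns as controls. Each time point is thus compared with the same 4 samples at 0 d, and the labels do not say whether these mice had a sham operation. The labels do not tie a column of the table to an individual mouse, so p-values measure only the spread between these samples.

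In the sarcomere, thin filaments of actin are anchored at the Z-disc by alpha-actinin and thick filaments of myosin are held together at the M-band by myomesins, and titin spans the distance between both. Tropomyosin lies along the thin filament, and tropomodulins and leiomodins set the filament's length at its free end. Many of these proteins come as closely related forms that are typical of fast or of slow fibres, and the mouse GAS muscle consists mainly of fast fibres. Loss of the nerve is known to lead to fibre atrophy with breakdown of myofibrils, and the values below are transcript levels, not protein levels.

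Values are FPKM (fragments scaled to the length of the transcript and to the mapped total of the sample) and are thus given per length. Levels of different genes are set side by side only on this scale, which does not make every gene comparable: the fast troponin C gene Tnnc2 was at 0.83 FPKM at 0 d, beside 4647 FPKM for its partner Tnni2 and 9749 FPKM for Tnnt3. Depth was similar, with between 14199901 and 17561584 fragments recovered per sample. The summed level of 8 skeletal muscle fibre genes lay between 19802 and 36357 FPKM in every sample, whereas 7 retina genes, checked because the extraction text in the labels speaks of retinas, summed to at most 0.528 FPKM. A list of 7 genes known to respond to denervation summed to at least 421 FPKM in every sample from 3 d on and to as little as 8.87 FPKM before. The share of fragments from mitochondrial genes was 14.5% to 18.2% at 0 d and 7.27% to 11.99% at 14 to 28 d, and scaling each sample by the median ratio of its genes instead of the deposited total lowered the log2 FPKM differences from 0 d by 0.19 (1 d) to 0.40 (14 d), and by less for genes close to the pseudocount of 1 FPKM. The median difference over all tested genes at 14 to 28 d went from 0.13 to 0.02. Counts are therefore given under both scalings, and the median-ratio value of a gene is given where its call at 14 to 28 d differs. One sample, 3 d replicate 1, stood apart from the other samples of its group (-20.3 against 0.2 to 6.0 on the first principal component over all samples), and results that rest on it are given with and without it. In these whole-muscle samples, a smaller number of fibres of one type and less RNA per fibre cannot be told apart.

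The sarcomere genes did not move as a block: by 3 d post denervation some had risen more than 5-fold, such as filamin C and its partner Xirp1, and others had fallen more than 2-fold, such as the myozenins and the fast tropomyosin Tpm1, whereas Ttn, Nebl, Xirp2 and Myom1 were called at no time point, as were 66.8% of all tested genes. A gene was called higher or lower when the Benjamini-Hochberg adjusted p of limma was under 0.05 and the change was at least 1.5-fold on the log2(FPKM + 1) scale, with all 22071 genes in the fit. At 1 d, 2 of 38 sarcomere genes were called higher and 12 lower, against 6.34% and 2.49% of all tested genes. At 3 d, 8 were higher and 12 lower (background 13.2% and 6.03%). At 5 d, 12 were higher and 7 lower (background 14.9% and 3.86%), and at 7 d, 14 were higher and 8 lower (background 15.4% and 4.1%). The later counts were 13 higher and 11 lower at 14 d (background 14.6% and 3.83%), 14 and 10 at 21 d (11.8% and 3.93%) and 15 and 9 at 28 d (14.2% and 4.1%). With the 12 samples of 14, 21 and 28 d pooled into 1 contrast, 14 were higher and 10 lower than at 0 d (background 13.3% and 3.91%). Under median-ratio scaling the counts were 2 higher and 14 lower at 1 d (background 4.14% and 4.69%), 8 and 14 at 3 d (9.02% and 9.17%), 10 and 14 at 5 d (6.71% and 7.7%) and 10 and 14 at 7 d (7.16% and 7.92%). They were 11 and 15 at 14 d (6.59% and 7.55%), 10 and 13 at 21 d (6.45% and 7.17%), 11 and 13 at 28 d (6.59% and 8.11%), and 9 and 12 for 14 to 28 d pooled (6.41% and 7.49%). From 5 d on, higher calls thus exceeded lower ones as deposited and lower calls exceeded higher ones under median-ratio scaling, and the background turned in the same way. The calls gained at single time points under that scaling were all lower, between -0.60 and -1.04, and fell on Myot, Ldb3, Tcap, Pdlim5, Pdlim7, Synpo2, Xirp2, Myom1, Myom2, Tpm3, Tmod1, Lmod2 and Lmod3. Calls lost were higher ones of Neb, Actn3, Smpx, Klhl40 and Klhl41. The other scalings were TPM (values rescaled to a common sum), quantile normalization and totals without mitochondrial genes. Calls that held under each of the 5 scalings numbered 2 higher and 8 lower at 1 d (background 4.02% and 2.08%), 8 and 11 at 3 d (8.17% and 5.17%), 10 and 7 at 5 d (6.66% and 3.02%), 10 and 6 at 7 d (7.11% and 3.3%), 11 and 6 at 14 d (6.4% and 3.14%), 10 and 6 at 21 d (6.31% and 3.41%) and 11 and 8 at 28 d (6.33% and 3.38%). The lower calls at 1 d that did not hold were those of Myoz3, Tcap, Mybpc1 and Tpm2, all lost with TPM. The calls described gene by gene below are those of the deposited scaling unless stated.

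The median log2 difference of the 38 genes from 0 d was -0.30 at 1 d, 0.05 at 3 d and 0.19 at 14 to 28 d, beside medians of 0.03, 0.06 and 0.13 over all tested genes. The lowest of the 8 group means was found at 1 d in 12 of the genes and at 3 d in 8, beside 18.0% and 18.7% of all tested genes, and 10 of the 12 genes called lower at 1 d were not called lower at any time from 5 d on, beside 34.7% of the 550 genes called lower at 1 d. The exceptions were Myoz3 and Synpo2. These counts are for the deposited scaling, and under median-ratio scaling at least Lmod3 was called lower after 3 d as well. Higher calls at each time point from 3 to 28 d were made in 8 genes, beside 5.92% of all tested genes (Pdlim3, Flnc, Xirp1, Igfn1, Obsl1, Mybph, Lmod2 and Klhl40) and lower calls at each of them in 6, beside 2.28% (Myoz1, Myoz3, Fhl3, Mybpc2, Tpm1 and Tmod4). Calls in both directions occurred in 5 genes, Smpx, Fhl1, Myom3, Klhl41 and Tpm3, beside 0.716% of all tested genes.

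**Figure D1:**
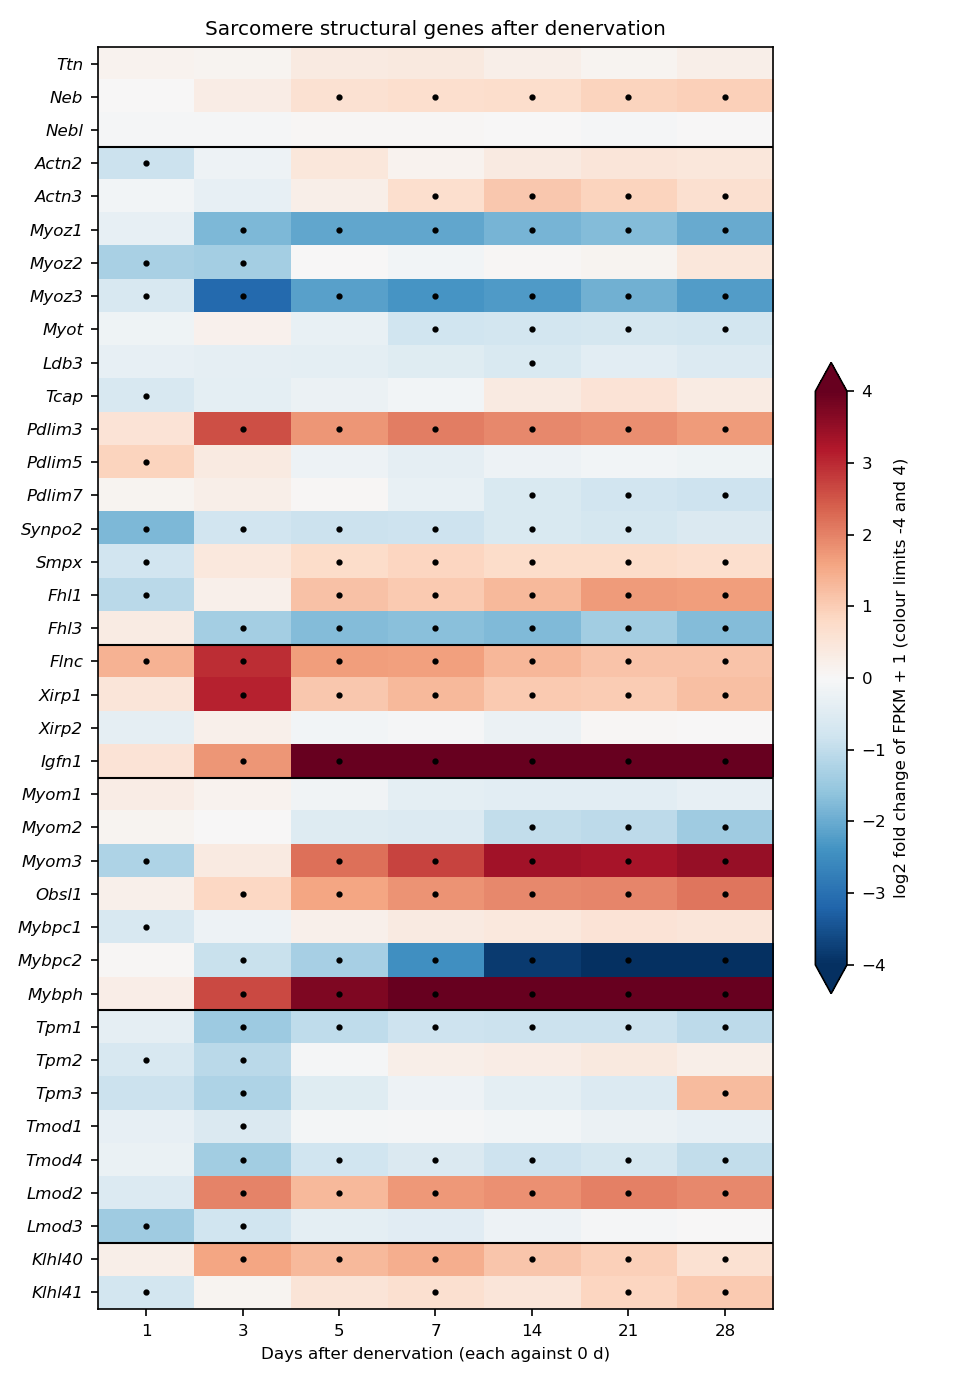
Mean log2 difference from 0 d of the 38 genes (rows, grouped by role) at 1 to 28 d (columns), with the colour scale limited to -4 and 4 and a dot on each call by limma. Igfn1, Mybph and Myom3 are the deepest red rows from 14 d on, Mybpc2 the deepest blue row, and the 1 d column holds 12 calls lower and 2 higher.

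Among the giant filament proteins, only nebulin (Neb), the ruler protein of the thin filament, was called. Its 4 values were 189, 215, 238 and 223 FPKM at 0 d and 384, 446, 473 and 388 FPKM at 28 d. Every sample from 3 d on was above every 0 d sample, and the group means were 216 ± 20.6, 216 ± 16.4, 266 ± 22.9, 334 ± 37.7, 342 ± 38.5, 356 ± 36.4, 399 ± 25.0 and 423 ± 44.0 FPKM (mean ± SD, n = 4) at 0, 1, 3, 5, 7, 14, 21 and 28 d. Neb was higher at 5 d (log2 fold change 0.62, SE 0.10, adjusted p = 3.55e-06) and at each later time point, but under median-ratio scaling the late rise of 0.86 became 0.49 and lay under 1.5-fold. Titin (Ttn), the spring that runs from Z-disc to M-band, stayed between group means of 57.8 FPKM at 0 d and 76.1 FPKM at 7 d, and its late difference of 0.19 had a 95% interval of -0.02 to 0.40. Nebulette (Nebl), the cardiac relative of nebulin, was low, with group means of 0.161 ± 0.0555, 0.113 ± 0.0688, 0.133 ± 0.0297, 0.208 ± 0.0673, 0.191 ± 0.0836, 0.178 ± 0.0346, 0.122 ± 0.0457 and 0.176 ± 0.0398 FPKM.

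Z-disc genes split by gene rather than by family. Of the 15 genes for alpha-actinins and their direct partners, 1 was higher and 7 were lower at 1 d (background 6.34% and 2.49%), and 4 were higher and 6 lower at 14 to 28 d (background 13.3% and 3.91%). Under median-ratio scaling the late counts were 2 and 7 (background 6.41% and 7.49%). The myozenins, which tether the phosphatase calcineurin to alpha-actinin, held the largest late falls of this group. Myoz3 had 45.2, 49.3, 51.7 and 48.4 FPKM at 0 d and 5.51, 4.44, 4.45 and 4.71 FPKM at 3 d, a 10.2-fold lower mean. Its groups did not overlap with 0 d at any time point, and the fall from 3 d (log2 fold change -3.11, SE 0.11, adjusted p = 9.24e-19) recovered only in part, to 11.6, 11.95, 13.1 and 11.2 FPKM at 21 d. Myoz3 means were 48.6 ± 2.66, 30.6 ± 2.64, 4.78 ± 0.505, 9.91 ± 0.519, 8.64 ± 1.15, 9.38 ± 0.312, 11.97 ± 0.807 and 9.71 ± 2.65 FPKM (n = 4) over the 8 time points in order. Myoz1, the fast-fibre myozenin, fell from 1087, 1021, 1053 and 1149 FPKM at 0 d to 255, 229, 264 and 266 FPKM at 5 d. Each denervated sample lay below each 0 d sample, and the means over time were 1077 ± 54.9, 854 ± 69.7, 310.1 ± 59.4, 254 ± 17.0, 256 ± 42.1, 294 ± 28.7, 325 ± 16.3 and 269.6 ± 47.2 FPKM. At 14 to 28 d the Myoz1 fall was 3.64-fold (log2 fold change -1.87, SE 0.10, adjusted p = 1.71e-15).

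Myoz2, the slow-fibre and cardiac myozenin, did not follow. It had 75.9, 76.6, 37.8 and 40.5 FPKM at 0 d, 17.0, 22.8, 23.2 and 24.5 FPKM at 1 d and 88.9, 72.7, 65.6 and 73.2 FPKM at 28 d. The 0 d samples themselves formed a high and a low pair, every sample of 1 and 3 d lay below both pairs, and the groups from 5 d on overlapped with 0 d. Means were 57.7 ± 21.4, 21.9 ± 3.34, 21.7 ± 7.18, 55.8 ± 4.92, 50.4 ± 4.35, 57.2 ± 5.73, 59.2 ± 10.01 and 75.1 ± 9.84 FPKM in time order, with calls lower at 1 d (log2 fold change -1.29, SE 0.20, adjusted p = 1.07e-05) and at 3 d. At 14 to 28 d its difference from 0 d was 0.20 with a 95% interval of -0.14 to 0.54 and was not called.

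The PDZ and LIM domain genes also moved apart. Pdlim3, which binds alpha-actinin, had 94.9, 98.2, 95.9 and 82.5 FPKM at 0 d and 578, 527, 556 and 583 FPKM at 3 d, a 6.04-fold higher mean. Each of its samples after 0 d was above each 0 d sample, the rise at 3 d was the highest point (log2 fold change 2.58, SE 0.07, adjusted p = 3.19e-21), and the means were 92.9 ± 7.05, 136 ± 7.66, 561 ± 25.4, 315 ± 19.0, 387 ± 22.1, 356 ± 38.3, 341 ± 15.8 and 308 ± 21.5 FPKM in time order. Pdlim5 was 1 of the 2 genes called higher at 1 d, with a rise from 61.0, 60.5, 53.0 and 47.3 to 95.8, 96.5, 111 and 108 FPKM (log2 fold change 0.88, SE 0.09, adjusted p = 3.65e-09), and it was not called at the later time points, although 5, 7 and 14 d gave lower calls under median-ratio scaling (-0.72 at 7 d). Pdlim7 fell late: its 14 to 28 d samples lay between 19.1 and 26.0 FPKM (median 22.9), below the 34.7 to 42.1 FPKM of 0 d (log2 fold change -0.72, SE 0.06, adjusted p = 4.73e-11). With TPM the Pdlim7 difference at 14 to 28 d was -0.57 and not called.

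The LIM-only genes Fhl1 and Fhl3 changed in opposite directions. Fhl1, a muscle growth and Z-disc scaffold protein, had 571, 722, 347 and 318 FPKM at 0 d, 210.2, 191, 208 and 281 FPKM at 1 d and 1515, 1539, 1459 and 1474 FPKM at 21 d. All 1 d samples were below and all samples from 5 d on above those of 0 d, although replicates 1 and 2 of 0 d were higher than replicates 3 and 4. It was lower at 1 d (log2 fold change -1.07, SE 0.22, adjusted p = 0.000347) and higher at 14 to 28 d (log2 fold change 1.56, SE 0.18, adjusted p = 2.27e-08), with means of 489.7 ± 192, 222 ± 39.8, 568 ± 208, 1038 ± 119.9, 972 ± 191, 1145 ± 80.3, 1496 ± 36.9 and 1491 ± 139 FPKM over the time course. Fhl3, another actin-associated LIM protein, fell from 99.5, 133, 104 and 80.3 FPKM at 0 d to 29.5, 31.4, 29.4 and 29.4 FPKM at 5 d and stayed low, with 14 to 28 d samples of 27.1 to 40.5 FPKM (median 31.1). No sample from 3 d on reached the lowest 0 d value (log2 fold change -1.63, SE 0.09, adjusted p = 1.41e-14).

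Synpo2, whose protein myopodin links alpha-actinin with filamin C, showed the largest fall at 1 d. It had 45.0, 47.1, 49.5 and 42.9 FPKM at 0 d, 11.6, 9.48, 13.8 and 15.8 FPKM at 1 d and 19.2, 33.3, 28.1 and 28.2 FPKM at 3 d. All denervated samples were below all 0 d samples, and the 1 d group was the lowest (log2 fold change -1.81, SE 0.12, adjusted p = 9.26e-13), a 3.64-fold lower mean, whereas the 14 to 28 d fall was -0.63 (SE 0.09), and -0.47 and not called with TPM. Smpx, a small muscle protein of the costamere, first fell from 178, 178, 142 and 167 to 100.05, 96.5, 97.7 and 90.5 FPKM and then rose to 297, 266, 377 and 285 FPKM at 7 d. Its groups at 1 d and from 3 d on did not overlap with 0 d, and the means were 166 ± 16.8, 96.2 ± 4.08, 220.4 ± 6.78, 279 ± 9.95, 306 ± 49.1, 275 ± 20.9, 275 ± 14.5 and 262 ± 14.3 FPKM, but the late rise of 0.70 was 0.34 under median-ratio scaling and then not called.

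The alpha-actinins cross-link thin filaments from neighbouring sarcomeres. Actn3, the fast-fibre form, had 1849.7, 1678, 2117 and 1815 FPKM at 0 d and 3708, 3631, 4543 and 3843 FPKM at 14 d. The 7, 14, 21 and 28 d groups lay entirely above 0 d (log2 fold change 1.07, SE 0.10, adjusted p = 1.16e-09 at 14 d), with means of 1865 ± 184, 1718 ± 184, 1483 ± 151, 2192 ± 259, 2994 ± 214, 3931 ± 417, 3444 ± 182 and 2924 ± 255 FPKM, and under median-ratio scaling the 14 d rise was called (0.68) but not those of 7, 21 and 28 d nor the pooled late one (0.51). Actn2, present in all fibre types, was called only at 1 d, when it fell from 221, 266, 216 and 178 to 109.6, 105, 129.6 and 133 FPKM (log2 fold change -0.87, SE 0.11, adjusted p = 2.44e-07), and its means over time were 220.1 ± 36.1, 119 ± 14.1, 191 ± 30.1, 297 ± 14.5, 239.7 ± 19.0, 281 ± 19.5, 306 ± 22.7 and 299.7 ± 32.0 FPKM. Telethonin (Tcap), which caps titin at the Z-disc, was likewise called lower at 1 d alone, with 2618, 2795, 2564 and 2584 FPKM at 0 d and 1659, 1823, 1474 and 1800.2 FPKM at 1 d (log2 fold change -0.65, SE 0.08, adjusted p = 1.23e-07). Without 1 d replicate 3 the Tcap difference was -0.58, just under 1.5-fold, and it was -0.53 with TPM and -0.35 after quantile normalization, where it was not called either. Myotilin (Myot) was called lower from 7 d on (-0.80, SE 0.10, at 7 d), but only the 7 d call held under every scaling, since with TPM the differences at 14, 21 and 28 d were -0.53, -0.55 and -0.57. Ldb3, the ZASP protein of the Z-disc, was called only at 14 d (-0.62, SE 0.08) among the single time points, a call lost with TPM (-0.42). Under median-ratio scaling Ldb3 was lower at 14 to 28 d as a whole (-0.90 in place of -0.53).

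Filamin C, an actin cross-linker that gathers at damaged Z-discs, and the Xin protein Xirp1, which binds it there, peaked together at 3 d. Flnc had 67.6, 82.4, 76.9 and 71.2 FPKM at 0 d, 202, 169.9, 203 and 211 FPKM at 1 d and 597, 613, 533 and 579 FPKM at 3 d. All denervated samples were above all 0 d samples, and the mean at 3 d was 7.79-fold that at 0 d (log2 fold change 2.95, SE 0.09, adjusted p = 2.88e-20). Means of Flnc were 74.5 ± 6.48, 197 ± 18.3, 581 ± 34.4, 243 ± 35.8, 234 ± 15.7, 189 ± 10.001, 165 ± 5.91 and 165 ± 19.8 FPKM in time order. Xirp1 had 23.9, 24.7, 21.8 and 20.8 FPKM at 0 d, 263, 254, 146 and 166 FPKM at 3 d and 47.4, 55.2, 43.1 and 51.5 FPKM at 5 d. Its 3 d samples spread more than those of any other time point, with replicates 1 and 2 above replicates 3 and 4, yet each stood above all samples of the other time points, and the 3 d mean was 9.09-fold that at 0 d (log2 fold change 3.08, SE 0.14, adjusted p = 1.12e-16). Means of Xirp1 were 22.8 ± 1.78, 32.3 ± 4.05, 207 ± 60.2, 49.3 ± 5.2, 57.7 ± 7.74, 48.7 ± 4.28, 47.5 ± 2.76 and 53.9 ± 7.18 FPKM in time order. Xirp2, the more abundant Xin gene, had means of 175 ± 19.7, 137 ± 21.7, 207 ± 69.4, 163 ± 6.56, 171 ± 37.3, 148 ± 9.45, 181 ± 29.3 and 178 ± 10.8 FPKM and was called at no time as deposited, but lower at 14 d under median-ratio scaling (-0.64). From the 3, 5 and 7 d samples to the 14, 21 and 28 d samples, both Flnc (log2 fold change -0.89, SE 0.05, adjusted p = 1.26e-13) and Xirp1 (log2 fold change -0.72, SE 0.08, adjusted p = 3.18e-08) fell, against 1.72% of all tested genes called lower in that comparison.

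**Figure D2:**
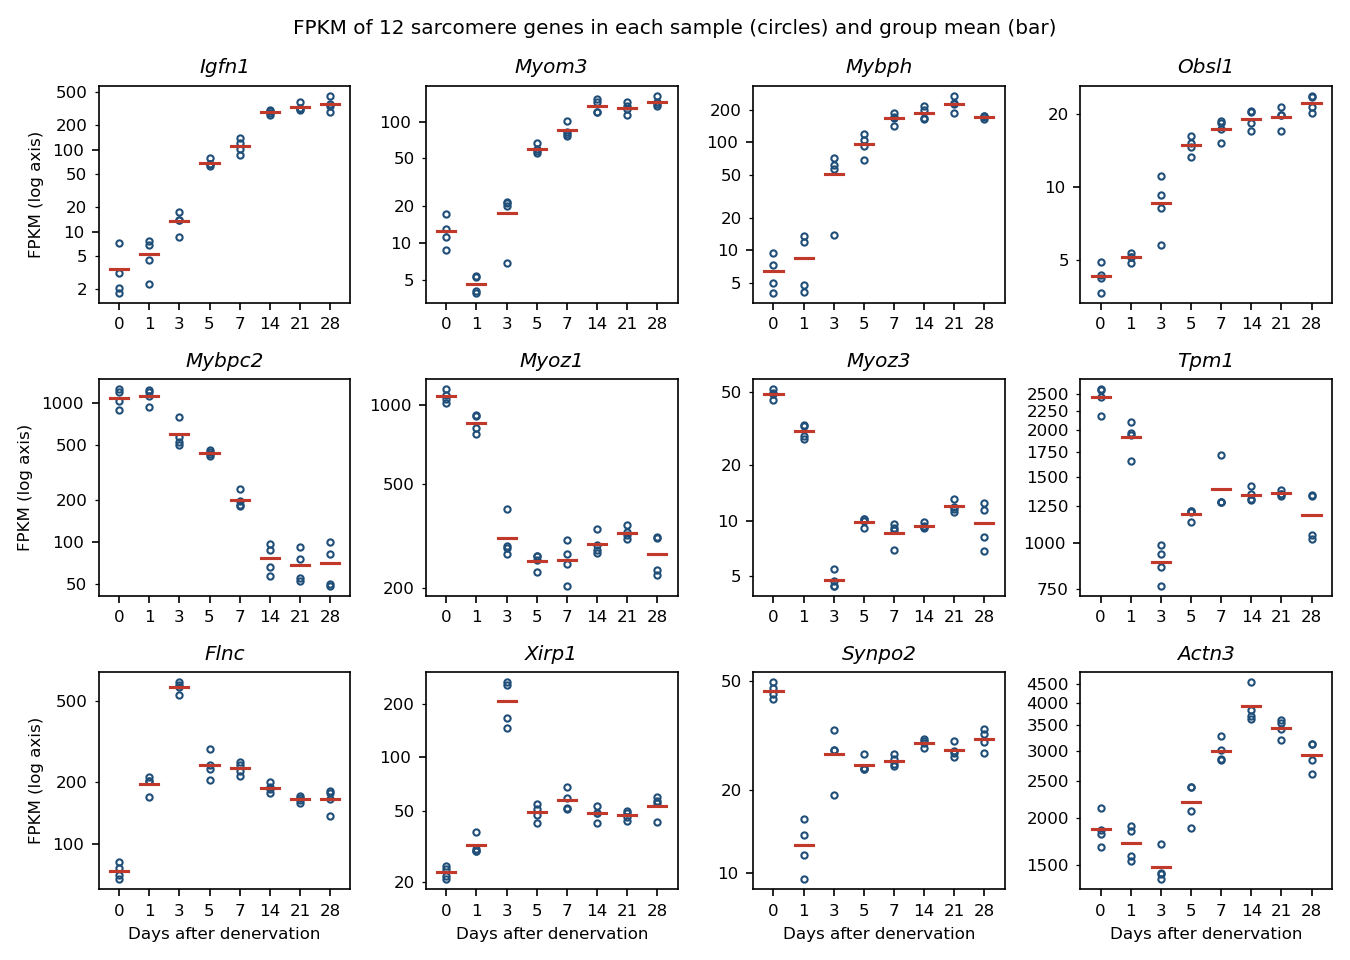
FPKM on log axes of 12 genes in each of the 32 samples by time point (points), with the group mean as a bar. Igfn1, Mybph and Myom3 lie far above their 0 d samples from 5 d on, Flnc and Xirp1 peak at 3 d, Myoz1, Myoz3 and Tpm1 drop by 3 d, and Mybpc2 falls stepwise from 3 to 14 d.

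Igfn1, an immunoglobulin and fibronectin domain protein that locates at the Z-disc, rose more than any of the other 37 genes. It had 2.06, 1.8, 7.29 and 3.1 FPKM at 0 d, 8.54, 13.8, 13.96 and 17.2 FPKM at 3 d, 104, 85.6, 122 and 138 FPKM at 7 d and 357, 455, 345 and 289 FPKM at 28 d. The 1 d group overlapped with 0 d, the 3 d group lay just above its highest sample, and the groups from 5 d on were far apart from it. Means were 3.56 ± 2.55, 5.38 ± 2.43, 13.4 ± 3.58, 69.2 ± 6.48, 112 ± 22.8, 286 ± 19.8, 331 ± 35.3 and 361 ± 68.9 FPKM, a 101-fold difference between 28 and 0 d (log2 fold change 6.44, SE 0.27, adjusted p = 1.87e-17). Replicate 3 was the highest at 0 d, and without it the 0 d mean was 2.32 FPKM and the fold 156. The rise went on after 7 d, with 2.76 (SE 0.15, adjusted p = 3.34e-14) between the 3, 5 and 7 d and the 14, 21 and 28 d samples.

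At the M-band and along the thick filament, forms that were scarce at 0 d rose while the fast-fibre forms fell. Of 7 genes, 3 were higher and 2 lower at 14 to 28 d (background 13.3% and 3.91%), and these 5 calls held under all 5 scalings. Myom3, a myomesin found in a subset of fibres, had 13.1, 17.3, 11.2 and 8.8 FPKM at 0 d, 4.02, 5.23, 3.88 and 5.33 FPKM at 1 d, 54.8, 60.0, 57.5 and 67.3 FPKM at 5 d and 146, 164, 134 and 140.4 FPKM at 28 d. All 1 d samples were below all 0 d samples, and from 5 d on all were above. Its means were 12.6 ± 3.58, 4.62 ± 0.768, 17.7 ± 7.24, 59.9 ± 5.37, 84.8 ± 11.01, 135 ± 17.2, 130.0 ± 13.7 and 146 ± 12.8 FPKM, with calls lower at 1 d (log2 fold change -1.25, SE 0.22, adjusted p = 4.98e-05) and higher at 14 to 28 d (log2 fold change 3.37, SE 0.18, adjusted p = 2.47e-15). At 3 d its replicate 1 had 6.85 FPKM and the other replicates 20.3 to 22.0 FPKM, and without that sample Myom3 was called higher at 3 d as well (0.75). Obscurin-like 1 (Obsl1), which ties titin to myomesin, rose from 4.22, 3.65, 4.89 and 4.33 FPKM at 0 d to 23.8, 23.5, 21.3 and 20.2 FPKM at 28 d. No sample from 3 d on overlapped with 0 d (log2 fold change 2.01, SE 0.09, adjusted p = 1.05e-16 at 14 to 28 d). Myom2, the M-protein of fast fibres, fell from 88.6, 90.1, 115 and 118 to 29.6, 37.6, 47.4 and 37.7 FPKM between 0 and 28 d (log2 fold change -1.16, SE 0.12, adjusted p = 4.4e-09 at 14 to 28 d), with means of 103 ± 15.6, 111 ± 12.2, 105 ± 28.2, 71.4 ± 7.53, 70.7 ± 12.1, 50.6 ± 4.84, 48.6 ± 3.74 and 38.1 ± 7.26 FPKM. Myom1, the myomesin common to all fibres, had means of 86.6 to 144 FPKM and was not called as deposited, but its 14 to 28 d difference of -0.39 became -0.75 under median-ratio scaling and was then called.

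Myosin-binding protein genes showed the same divergence. Mybph, the myosin-binding protein H gene, had 9.56, 4.06, 7.37 and 4.95 FPKM at 0 d, 13.9, 56.2, 71.3 and 62.3 FPKM at 3 d and 187, 225, 269 and 230.3 FPKM at 21 d. The groups from 3 d on did not overlap with 0 d, although 3 d replicate 1 lay far below the other 3 d samples. Means of Mybph were 6.48 ± 2.48, 8.59 ± 4.89, 50.9 ± 25.4, 96.6 ± 21.4, 167 ± 19.1, 187 ± 26.3, 228 ± 33.6 and 172 ± 4.9 FPKM, and the 14 to 28 d mean was 30.2-fold that at 0 d (log2 fold change 4.76, SE 0.29, adjusted p = 3.2e-14). Its exons overlap those of the antisense gene Adora1 over 1162 of 2329 bases, and without knowledge of the strand used in counting, reads of the pair cannot be told apart. Mybpc2, the fast form of myosin-binding protein C, had 1030.2, 890.0, 1208 and 1263 FPKM at 0 d, 792, 503, 525 and 567 FPKM at 3 d, 180.1, 196, 239.7 and 184 FPKM at 7 d and 48.0, 49.6, 99.8 and 82.0 FPKM at 28 d. The groups at 0 and 1 d overlapped, and each sample from 3 d on was below them. Means of Mybpc2 were 1098 ± 170.5, 1124 ± 136, 597 ± 133, 436 ± 18.7, 200.01 ± 27.3, 76.8 ± 18.8, 68.3 ± 18.4 and 69.9 ± 25.4 FPKM, a 15.3-fold lower level at 14 to 28 d (log2 fold change -3.95, SE 0.17, adjusted p = 1.83e-17). Mybpc1, the slow form, had 369.8, 507, 232 and 199 FPKM at 0 d and 447, 381, 440.3 and 457 FPKM at 28 d. Its 0 d samples spread so widely that no later group stood clear of them, and it was called only at 1 d (log2 fold change -0.65, SE 0.19, adjusted p = 0.0098), a call lost when 0 d replicate 1, 0 d replicate 2 or 1 d replicate 2 was left out (-0.55, -0.40 and -0.57), and also with TPM (-0.53) and after quantile normalization (-0.52). Means of Mybpc1 were 327 ± 141, 196 ± 30.8, 271 ± 57.4, 356 ± 29.4, 396 ± 40.1, 411 ± 28.3, 448 ± 58.8 and 431 ± 34.0 FPKM.

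To set the sequences beside these changes, the promoter windows of the 4 genes with the largest late rises that have one in RefSeq are shown, with that of Mybpc2, which fell most. Each window runs from 250 bases before to 50 bases after the annotated start and was taken from RefSeq on the GRCm38.p6 build, on the strand of the gene, 5′ to 3′. Igfn1 lies at chr1:136006293-136006592 (minus strand), Mybph at chr1:134193198-134193497 (plus), Myom3 at chr4:135759465-135759764 (plus), Obsl1 at chr1:75506403-75506702 (minus) and Mybpc2 at chr7:44524620-44524919 (minus). Capitals mark matches to CAGCTG, the E-box form bound by myogenic factors, or to the MEF2 consensus or the CArG box, the sites of MEF2 and serum response factor.
Igfn1: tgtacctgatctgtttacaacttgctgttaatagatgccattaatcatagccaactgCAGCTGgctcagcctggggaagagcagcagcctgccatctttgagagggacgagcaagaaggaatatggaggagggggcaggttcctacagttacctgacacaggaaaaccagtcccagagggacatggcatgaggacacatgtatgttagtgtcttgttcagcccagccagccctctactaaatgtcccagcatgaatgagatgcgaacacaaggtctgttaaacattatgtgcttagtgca
Mybph: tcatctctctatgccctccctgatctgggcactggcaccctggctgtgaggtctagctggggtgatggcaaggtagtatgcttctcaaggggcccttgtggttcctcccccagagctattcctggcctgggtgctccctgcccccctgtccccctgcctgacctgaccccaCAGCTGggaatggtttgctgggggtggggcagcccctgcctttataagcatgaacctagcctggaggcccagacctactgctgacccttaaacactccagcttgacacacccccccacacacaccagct
Myom3: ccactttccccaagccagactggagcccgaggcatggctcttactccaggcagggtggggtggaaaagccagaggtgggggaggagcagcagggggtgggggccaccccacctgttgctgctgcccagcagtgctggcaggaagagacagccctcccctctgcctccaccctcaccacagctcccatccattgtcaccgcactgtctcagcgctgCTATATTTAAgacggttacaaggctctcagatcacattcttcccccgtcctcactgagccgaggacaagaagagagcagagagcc
Obsl1: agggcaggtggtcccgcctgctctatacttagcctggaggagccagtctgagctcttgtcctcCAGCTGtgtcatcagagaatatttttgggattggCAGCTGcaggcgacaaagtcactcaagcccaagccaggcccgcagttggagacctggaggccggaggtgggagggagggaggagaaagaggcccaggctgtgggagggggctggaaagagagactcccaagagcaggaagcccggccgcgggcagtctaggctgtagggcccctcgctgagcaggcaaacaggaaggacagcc
Mybpc2: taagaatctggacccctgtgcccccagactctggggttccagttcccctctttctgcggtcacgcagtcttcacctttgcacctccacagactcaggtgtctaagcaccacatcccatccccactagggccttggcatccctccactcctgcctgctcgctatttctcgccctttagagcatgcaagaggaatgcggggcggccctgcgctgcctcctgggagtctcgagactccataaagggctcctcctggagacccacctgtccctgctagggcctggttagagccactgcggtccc
The Igfn1 and Mybph windows each hold 1 CAGCTG, 193 and 79 bases before the start, the Obsl1 window holds 2, at 187 and 153 bases, the Myom3 window holds a MEF2 consensus match 35 bases before the start, and the Mybpc2 window holds none of the 3 marked motifs. Windows were found for 29 of the 38 genes, 37 windows in all since some genes have several starts. On both strands, CAGCTG occurred in 11 of the 37 windows (29.7%), beside 16.3% of all 32851 promoter windows of the same length, and the general E-box CANNTG, of which CAGCTG is a case, in 27 (73.0%, beside 72.3%). The MEF2 consensus occurred in 6 windows (16.2%, beside 3.19%) and the CArG box in 5 (13.5%, beside 1.63%). The CArG windows belong to 4 genes, Fhl1, Ldb3, Myom1 and Nebl, since the pair of overlapping Ldb3 windows hold the same match, so that 1 site is counted in both. Such matches are letters in a window and do not show that a factor binds there.

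Among the tropomyosins and length regulators of the thin filament, all genes but Lmod2 had lower means at 3 d than at 0 d. Of these 7 genes, 6 were called lower and 1 higher at 3 d (background 6.03% and 13.2%), and 5 of the 6 falls and the rise held under every scaling. Lmod3 and Tpm2 were already called lower at 1 d. Of the other thin-filament genes, Klhl40 was called higher at 3 d. A list of 8 fast-fibre marker genes summed to 18347 to 23620 FPKM at 3 d, beside 40400 to 43997 FPKM at 0 d. The 8 skeletal muscle fibre genes summed to 19802 to 22786 FPKM, beside 32553 to 36357 FPKM. How far these falls are linked was not tested. Tpm1, the fast-fibre alpha-tropomyosin, had 2563, 2185, 2449.6 and 2572 FPKM at 0 d, 987, 765, 863 and 931 FPKM at 3 d and 1047, 1025, 1332 and 1336 FPKM at 28 d. No denervated group overlapped with 0 d, and the low point was at 3 d (log2 fold change -1.46, SE 0.10, adjusted p = 1.08e-12), a 2.76-fold lower mean. Means of Tpm1 were 2442 ± 181, 1912 ± 189, 887 ± 95.4, 1194 ± 38.3, 1392 ± 218, 1343 ± 55.3, 1353 ± 21.5 and 1185 ± 172 FPKM. After quantile normalization its lower calls at 7, 14 and 21 d (-0.43, -0.42 and -0.55) and at 14 to 28 d as a whole (-0.54 in place of -0.92) were lost. Tpm2, the beta-tropomyosin of all fibres, fell from 1623, 1924, 1477 and 1154 FPKM at 0 d to 515, 765, 820.3 and 827 FPKM at 3 d (log2 fold change -1.08, SE 0.12, adjusted p = 2.43e-08) and was back within the 0 d spread by 5 d, with 1399, 1484, 1448 and 1591 FPKM. Tropomyosin genes share stretches of nearly identical sequence, and their FPKM are uncertain to the extent that reads were split between them.

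Tropomodulins cap the free end of the thin filament and leiomodins promote its growth there. Tmod4, the skeletal form, had 317, 299, 292 and 328 FPKM at 0 d and 119.9, 95.2, 123 and 131 FPKM at 3 d. It remained below the 0 d range in every denervated sample, with means of 309 ± 16.4, 256 ± 21.8, 117 ± 15.3, 178 ± 3.22, 205 ± 21.5, 174 ± 10.96, 188 ± 11.7 and 157 ± 15.0 FPKM and a late fall of -0.84 (SE 0.07, adjusted p = 3.4e-11), although with TPM its calls at 7 d (-0.40) and 21 d (-0.58) were lost. Tmod1 means were 42.4 ± 3.85, 33.3 ± 1.57, 28.03 ± 4.86, 40.5 ± 2.5, 41.5 ± 3.4, 38.9 ± 1.66, 35.8 ± 0.744 and 33.8 ± 2.72 FPKM, and its single call, at 3 d (log2 fold change -0.59, SE 0.08, adjusted p = 9.93e-07), was lost without 0 d replicate 3 (-0.53), 3 d replicate 1 (-0.50) or 3 d replicate 2 (-0.55), and with TPM (-0.44). Tmod1 exons overlap the antisense gene Tstd2 over 1287 of 3946 bases. Lmod2, by contrast, rose from 121, 136, 88.5 and 93.2 FPKM at 0 d to 407, 494, 392.1 and 432 FPKM at 3 d and 454, 407, 381 and 397 FPKM at 28 d. All samples from 3 d on were above 0 d (log2 fold change 1.91, SE 0.11, adjusted p = 8.13e-15 at 14 to 28 d), with means of 109.5 ± 22.5, 76.1 ± 24.1, 431 ± 45.0, 264 ± 6.94, 363 ± 20.7, 383 ± 18.1, 436 ± 14.4 and 409.7 ± 31.4 FPKM. Lmod3, the leiomodin of skeletal thin filaments, fell to 31.5, 31.4, 26.0 and 31.1 FPKM at 1 d from 90.3, 97.9, 69.0 and 74.8 FPKM at 0 d (log2 fold change -1.43, SE 0.09, adjusted p = 2.55e-13) and climbed back, with means of 83.0 ± 13.4, 30.0 ± 2.67, 46.7 ± 4.1, 63.2 ± 4.9, 60.0 ± 3.45, 70.7 ± 1.98, 79.0 ± 4.08 and 84.1 ± 5.33 FPKM. By 28 d its samples (90.2, 77.2, 84.0 and 85.1 FPKM) lay within the 0 d range. Under median-ratio scaling the Lmod3 difference of the 14 to 28 d samples from 0 d was -0.44 (exact permutation p = 0.0022).

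The Kelch proteins Klhl40 and Klhl41 stabilise nebulin and other thin-filament proteins. Klhl40 rose from 31.0, 30.6, 31.4 and 28.1 FPKM at 0 d to 93.7, 97.9, 86.5 and 92.8 FPKM at 3 d (log2 fold change 1.58, SE 0.09, adjusted p = 6.48e-15) and stayed above the 0 d range at lower levels from 5 d on, with means of 30.3 ± 1.48, 36.0 ± 5.07, 92.7 ± 4.69, 76.8 ± 5.88, 84.8 ± 6.2, 66.9 ± 8.1, 59.2 ± 3.59 and 47.0 ± 3.14 FPKM. Klhl41 fell from 298, 319, 251 and 240.2 to 170.3, 144, 176 and 171 FPKM at 1 d (log2 fold change -0.73, SE 0.10, adjusted p = 1.56e-06) and then rose to 581, 535, 596 and 589 FPKM at 28 d (log2 fold change 1.06, SE 0.10, adjusted p = 9.72e-10). The 1 d samples were all below and the samples from 5 d on all above 0 d, with means of 277 ± 37.4, 165 ± 14.3, 297 ± 51.0, 390.0 ± 19.9, 430.2 ± 66.0, 386 ± 7.56, 500.1 ± 9.56 and 575 ± 27.3 FPKM. Under median-ratio scaling the 14 to 28 d rises of Klhl40 (0.54) and Klhl41 (0.44) were not called.

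To compare related forms within each sample, a measure that a single scaling factor per sample leaves unchanged apart from the pseudocount, the log2 ratio of FPKM was taken for 10 pairs of paralogs and compared between the 12 samples of 14 to 28 d and the 4 samples of 0 d by a two-sided exact permutation test, in which the smallest p possible is 0.00055. In 7 of the 10 pairs the late samples did not overlap with 0 d, and each of these 7 had exact p = 0.00055 and an adjusted p of 0.000785 over the 10 pairs. Beside this count, the ratio did not overlap in 23.5% of all pairs of tested genes and in 40.1% of all pairs of genes with at least 1 FPKM in 4 samples. The largest shift was between myomesins: Myom2 was 8.28-fold the level of Myom3 at 0 d, whereas Myom3 was 3.01-fold the level of Myom2 at 14 to 28 d. In log2 terms the ratio went from 3.05 ± 0.60 (n = 4) to -1.59 ± 0.35 (n = 12), a 25.0-fold change. The Mybpc2/Mybpc1 ratio went from 1.83 ± 0.85 to -2.63 ± 0.38, a 22.0-fold change that also turned the order, since the fast form was 3.56-fold the slow form at 0 d and the slow form 6.18-fold the fast form later. The Myoz1/Myoz2 ratio fell by a factor of 4.22 (from 4.30 ± 0.59 to 2.22 ± 0.40), and the Lmod3/Lmod2 ratio by 4.01 (from -0.39 ± 0.07 to -2.39 ± 0.11).

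Smaller log2 shifts were found in Tmod4/Tmod1 (-0.61), Neb/Nebl (0.87) and Xirp1/Xirp2 (1.18), of which Neb/Nebl rests on a gene close to the pseudocount of 0.1 FPKM. The Xirp1/Xirp2 ratio passed through a peak at 3 d, when both genes were at nearly equal levels (0.01 ± 0.11 log2, n = 4). For Actn3/Actn2 the groups overlapped and the change was 0.44 (exact permutation p = 0.0275, adjusted p = 0.0343), and the adjusted p rose to 0.0769 without 0 d replicate 1 and to 0.164 without 0 d replicate 2. Neither Tpm1/Tpm3 (-1.02, exact permutation p = 0.104) nor Klhl41/Klhl40 (-0.11, exact permutation p = 0.679) passed the test. Klhl41/Klhl40 first fell to 1.67 ± 0.19 at 3 d from 3.18 ± 0.17 at 0 d and ended at 3.61 ± 0.05 at 28 d, so that its late samples lay on both sides of the 0 d samples. Tpm1/Tpm3 stood at 5.67 ± 0.57 at 0 d, 5.39 ± 0.39 at 21 d and 3.34 ± 0.57 at 28 d, and only the 28 d samples lay below those of 0 d as a group.

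**Figure D3:**
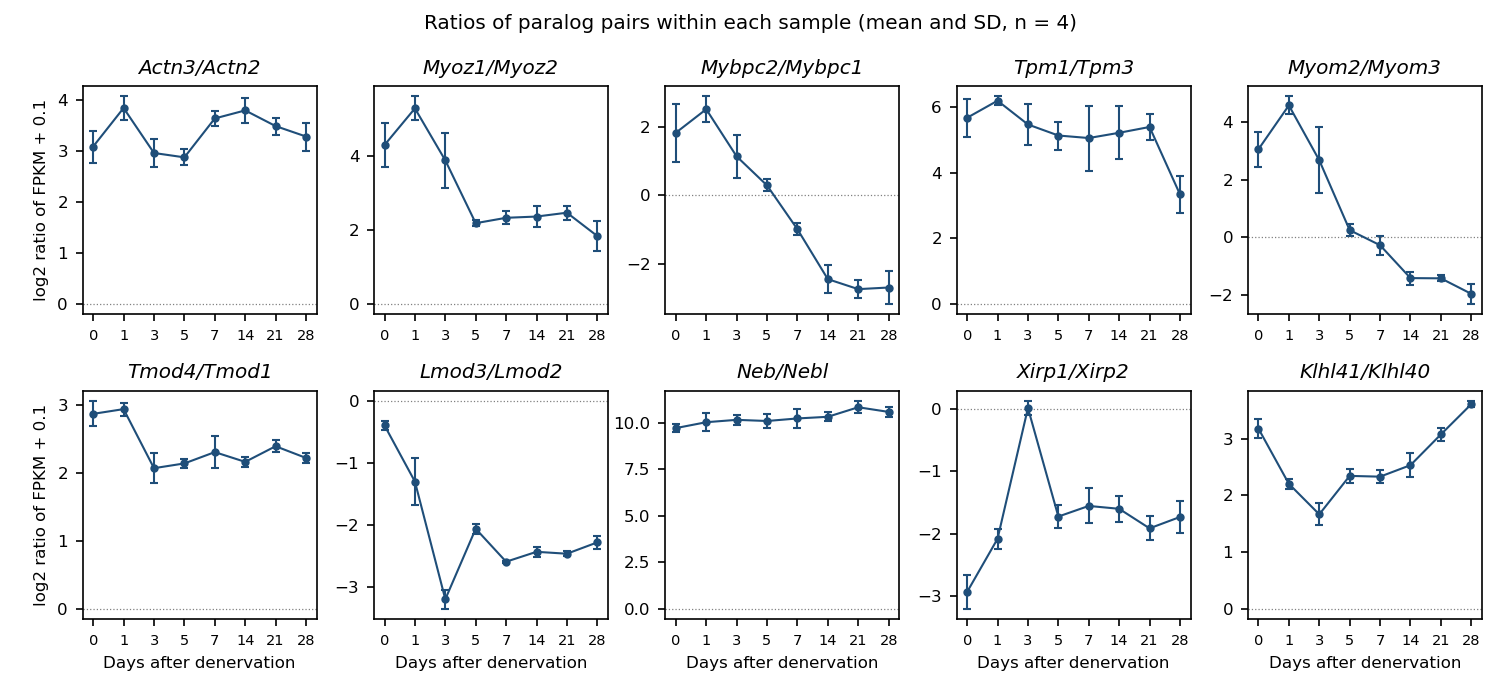
Log2 ratio of FPKM for 10 pairs of paralogs by time point, as mean and SD of 4 samples, with a line at equal levels. The ratios Myom2/Myom3 and Mybpc2/Mybpc1 cross the line of equal levels between 5 and 7 d, from positive to negative values.

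Slow-fibre forms did not rise steadily. Tpm3, the slow-fibre alpha-tropomyosin, had 86.0, 45.7, 36.8 and 36.1 FPKM at 0 d, 11.8, 25.5, 23.6 and 22.0 FPKM at 3 d, 37.3, 43.2, 26.9 and 24.9 FPKM at 21 d and 160.0, 127, 98.8 and 90.9 FPKM at 28 d. Its 3 d samples were below and its 28 d samples above all 0 d samples, and in between it varied widely within groups, with means of 51.1 ± 23.6, 26.0 ± 0.798, 20.7 ± 6.11, 35.0 ± 9.23, 47.0 ± 27.2, 40.0 ± 20.6, 33.1 ± 8.67 and 119 ± 31.4 FPKM. It was lower at 3 d (log2 fold change -1.22, SE 0.35, adjusted p = 0.00484) and higher at 28 d (log2 fold change 1.26, SE 0.35, adjusted p = 0.00343). A list of 7 other slow-fibre marker genes, all at a mean of at least 1 FPKM in every group, moved with it. The list summed to 433 to 1209 FPKM at 0 d, 177 to 253 FPKM at 1 d and 98.0 to 245 FPKM at 3 d. The sums were 449 to 654 FPKM at 21 d and 1322 to 2316 FPKM at 28 d. All 1 d sums were below all 0 d sums. In the 28 d group the samples with more Tpm3 also had the higher sums, and at 0 d replicates 1 and 2 were above replicates 3 and 4 in the list (1209 and 717 against 474 and 433 FPKM). The same order at 0 d was found in Lmod2, among others, and in every gene called lower at 1 d except Myoz3 and Synpo2. Neb, Myom2, Obsl1 and Mybpc2 had the opposite order. Differences in the share of slow fibres between the pieces of muscle and changes within fibres cannot be told apart here. Without the 28 d samples, Tpm3 was no longer called higher in the late than in the 3, 5 and 7 d samples (0.16 in place of 0.74), whereas the late samples against 0 d still gave 14 higher and 10 lower calls. Myoz2 (0.56) and Obsl1 (0.54) were also no longer called in that comparison.

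**Figure D4:**
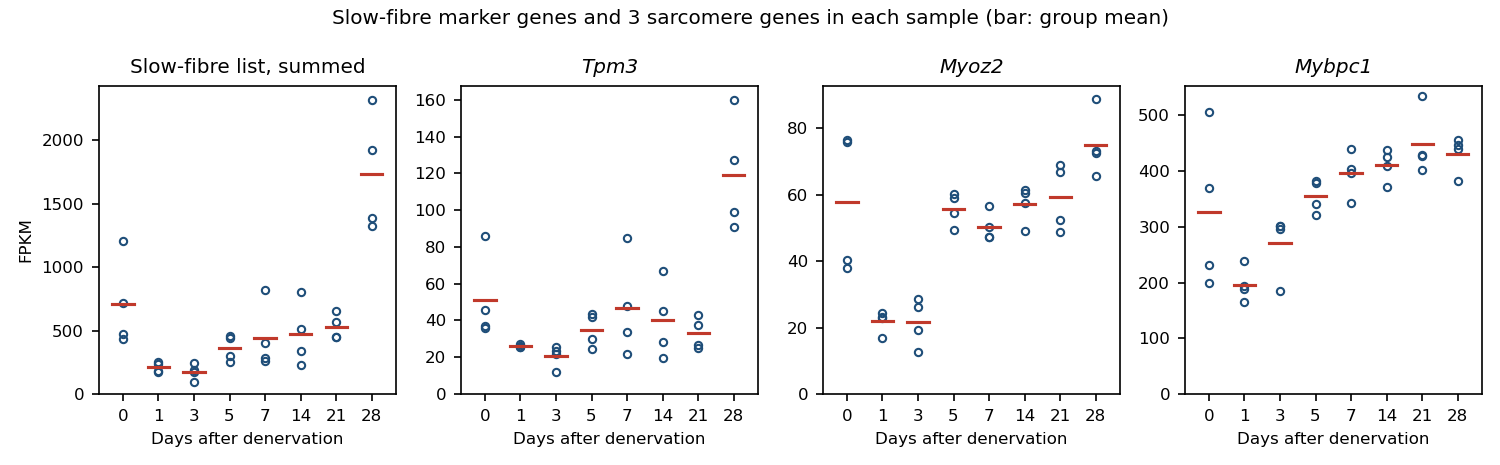
FPKM of the summed slow-fibre marker list and of Tpm3, Myoz2 and Mybpc1 in each of the 32 samples by time point (points) with the group mean as a bar. The slow list and Tpm3 have their highest samples at 28 d and split the 0 d samples in the same order.

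Between the 3, 5 and 7 d samples and the 14, 21 and 28 d samples, 10 of the 38 genes were called higher and 5 lower, against 1.97% and 1.72% of all tested genes. Under median-ratio scaling 8 were higher and 6 lower (background 1.81% and 1.87%), with Obsl1 (0.58) and Tpm2 (0.58) no longer called and Klhl40 called lower (-0.59). Under each of the 5 scalings, 6 were higher and 5 lower (background 1.69% and 1.48%), and after quantile normalization the Actn3 (0.22) and Tcap (0.07) differences were not called. Igfn1 (2.76), Myom3 (1.62) and Mybph (1.12) were higher and Mybpc2 (-2.40) was lower in the later samples, so that in these 4 genes they differed further from 0 d than the earlier ones. The Mybph mean at 28 d (172 FPKM) was nonetheless close to that at 7 d (167 FPKM). In Fhl1 (0.75), Tpm2 (0.60), Tcap (0.65) and Actn3 (0.68) the late samples were also higher, and in Pdlim7 (-0.72) and Myom2 (-0.81) lower. Flnc (-0.89) and Xirp1 (-0.72) came back from their 3 d peak towards 0 d, and Myoz2 (0.68) from its low values at 3 d. Without 3 d replicate 1, 8 were higher and 5 lower, and the calls on Obsl1 (0.55) and Tpm2 (0.55) were the ones lost.

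Of the 14 genes higher at 14 to 28 d, 9 were called higher under each of the 5 scalings, beside 6.28% of all tested genes: Pdlim3, Fhl1, Flnc, Xirp1, Igfn1, Myom3, Obsl1, Mybph and Lmod2. Of the 10 lower genes, Myoz1, Myoz3, Fhl3, Myom2, Mybpc2 and Tmod4, a count of 6, were called lower under each, beside 3.28%. No called gene changed its sign between scalings in this comparison. By the exact permutation test of single genes, 32 of 38 had p under 0.05 (18 higher, 14 lower), beside 56.4% of all tested genes. Under median-ratio scaling 30 had p under 0.05 (14 higher, 16 lower), beside 51.1%, so that Actn2, Tcap, Mybpc1 and Tpm2 no longer passed and Xirp2 and Lmod3 passed as lower. The late samples lay entirely above 0 d in 15 genes and entirely below in 12, beside 27.7% and 6.38% of all tested genes.

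**Figure D5:**
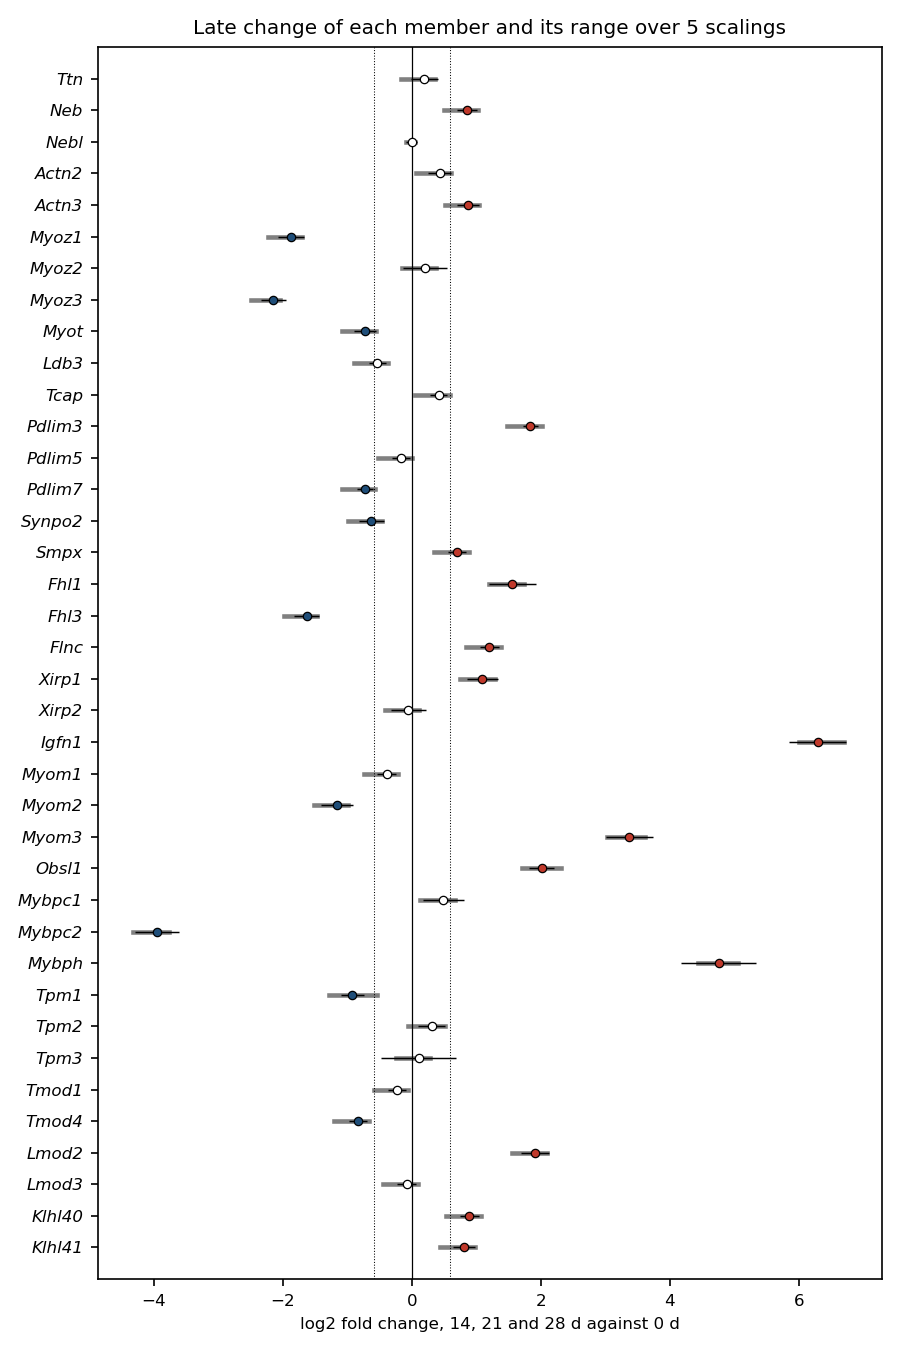
Log2 difference of the 14, 21 and 28 d samples from 0 d for each of the 38 genes (points, red where called higher, blue where called lower, white where not called), with the 95% interval as a thin line and the range over 5 scalings as a grey bar. Dotted lines mark 1.5-fold, and of the 14 red points those of Neb, Actn3, Smpx, Klhl40 and Klhl41 have grey bars that reach inside them.

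For comparison, 34 other genes of the sarcomere and its chaperones were examined, of which 33 were tested. At 14 to 28 d, 6 were higher and 4 lower than at 0 d (background 13.3% and 3.91%), with a median difference of 0.04, and under median-ratio scaling 1 was higher and 10 lower (background 6.41% and 7.49%). The largest rises were Fhl2 (1.68), a LIM-only protein best known from heart, and Myo18b (0.93), an unconventional myosin needed for sarcomere assembly. The largest falls were Kbtbd13 (-1.9996), a Kelch protein of muscle, and Smtnl1 (-0.93), a smoothelin-like protein.

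Summed levels of marker lists for other cells of the muscle are given for the same samples. The macrophage list of 8 genes (6 at a mean of 1 FPKM or more at 0 d) summed to 152 to 223 FPKM at 0 d and 303 to 1311 FPKM from 3 d on, and the satellite cell and myoblast list of 5 genes (4 at 1 FPKM or more) to 14.4 to 19.6 FPKM at 0 d and 158 to 313 FPKM from 3 d on. The latter sum was carried by Myod1 (mean 7.88 FPKM at 0 d and 60.3 FPKM at 3 d) and by Myog (1.97 and 215 FPKM), which is also on the list of denervation-responsive genes, whereas Pax7, the marker of quiescent satellite cells, had 0.61 FPKM at 0 d and 0.44 FPKM at 3 d and Cdh15 had 5.16 and 10.3 FPKM. The vascular smooth muscle list of 5 genes (4 at 1 FPKM or more at 0 d), whose cells also express filamin, tropomyosin and PDZ-LIM genes, summed to 65.6 to 74.8 FPKM at 0 d and 35.7 to 71.7 FPKM afterwards. The fibroblast list (6 genes) stood at 409 to 536 FPKM at 0 d and 507 to 672 FPKM at 28 d, the endothelium list (5 genes) at 79.7 to 92.0 and 53.7 to 65.1 FPKM, the Schwann cell list (5 genes) at 76.3 to 169 and 9.81 to 24.5 FPKM, and the fast-fibre list (8 genes, 7 at 1 FPKM or more at 0 d) at 40400.1 to 43997 and 23029 to 27897 FPKM. No marker of these lists was at 0 in every sample of a group. Their part in the changes of the sarcomere genes was not tested.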

How the data were processed

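The 38 genes and all lists were chosen with earlier results of these data known. Per the labels and methods, the authors sequenced paired-end reads of 150 bp, aligned them to GRCm38 with HISAT2 2.1.0 and deposited 1 table of FPKM per gene and sample, and the strand setting of the counting is not given in the sources used here. CASAVA and DESeq2 are also named in the submitters' processing notes. Whole fragments were recovered from 99.3% to 99.4% of values under 200 fragments (tolerance 0.05) with GENCODE M21 exon lengths. All 32 samples entered limma 3.58.1 (R 4.3.3) on log2(FPKM + 1) with a variance trend, Benjamini-Hochberg adjusted over the 22071 genes with FPKM of at least 0.1 in 4 samples. Fold changes on this scale understate those of low genes. Single genes and paralog ratios (pseudocount 0.1 FPKM) were tested by exact permutation of 12 against 4 samples (1820 regroupings). On simulated data for 14 d against 0 d, 158 of 200 genes changed 2-fold were recovered and 2 unchanged genes were called among 22071. Only genes with a mean of at least 1 FPKM were changed. The simulated noise had the spread that limma had fitted, so these counts do not test that model. Values in every group are given for the 2 genes of each role list with the largest called change, for paralog pairs and for genes called in both directions, and the remaining genes are given by ranges and counts. The alternatives were other scalings (TPM, median ratio, quantile, totals without mitochondrial genes), pseudocounts, filters, thresholds and leaving out each replicate. Figures and tables used Python 3.11.15 with numpy 2.4.6, pandas 2.3.3 and matplotlib 3.10.9. No replicate pair had equal counts (chi-square over degrees of freedom 4.00 to 66.6 in 48 pairs).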

Additional observations from a re-analysis of the deposited data

Results flagged for a closer look

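Among 304 groups of 4 samples (38 genes at 8 time points), 16 held a sample farther from the others than Dixon's 95% value allows, where chance alone gives about 15.2. Of these, 4 fell on 3 d replicate 1, which was high in Actn3 (1706 FPKM) and Myoz1 (398 FPKM) and low in Myom3 (6.85 FPKM) and Mybpc1 (185 FPKM). High samples were also found for Synpo2 at 5 d replicate 4 (27.1 FPKM), Pdlim7 at 7 d replicate 2 (33.9 FPKM) and 14 d replicate 2 (26.0 FPKM), Fhl3 at 5 d replicate 2 (31.4 FPKM) and 28 d replicate 4 (38.2 FPKM), Xirp1 at 1 d replicate 1 (38.3 FPKM), Myom2 at 21 d replicate 3 (54.2 FPKM), Tpm1 at 7 d replicate 3 (1719 FPKM) and Tmod1 at 0 d replicate 3 (48.2 FPKM). Low samples were Myom1 at 1 d replicate 4 (135.7 FPKM), Tpm1 at 5 d replicate 3 (1137 FPKM) and Lmod3 at 1 d replicate 3 (26.0 FPKM).

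The change from 0 d differed between the late (14, 21 and 28 d) and early (3, 5 and 7 d) samples in 15 genes by the limma contrast of both. The log2 differences were 2.76 for Igfn1, 1.62 for Myom3, 1.12 for Mybph, 0.75 for Fhl1, 0.74 for Tpm3, 0.68 for Actn3 and for Myoz2, 0.65 for Tcap, 0.60 for Obsl1 and for Tpm2, -0.72 for Pdlim7 and for Xirp1, -0.81 for Myom2, -0.89 for Flnc and -2.40 for Mybpc2.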

How the results depend on the processing

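Most calls kept their side of the threshold, and no gene called in the late samples changed sign under another scaling. Of the counts of the 38 genes, those higher at 1 d (2) became 4 with TPM and 7 with no fold threshold, and those higher at 14 to 28 d (14) became 9 under median-ratio scaling. The lower counts at 5 d (7) became 14 under median-ratio scaling and 13 with no fold threshold, those at 7 d (8) became 14, 14 and 13 under median-ratio scaling, with no fold threshold and under quantile normalization, and those at 14 d (11) became 7 with TPM. With no fold threshold, 19 genes were higher and 9 lower in the late than in the 3, 5 and 7 d samples, in place of 10 and 5. No share of all tested genes is given for the counts with TPM, under quantile normalization or with no fold threshold. These counts describe the settings and are not a result about the 38 genes. Tcap at 5 d was -0.22 as deposited and 0.64 after quantile normalization. The cause of these shifts was not tested. When each sample was left out in turn, the Actn3/Actn2 change ranged from 0.29 to 0.52. Of the single-gene results under these omissions, 10894 stayed on their side of the threshold, 27 gained a call, 23 lost one and 0 changed direction. Beside those named in the report, the lost calls were Neb at 5 d (without 0 d replicate 1 or 5 d replicate 2), Pdlim7 at 14 d (0 d replicate 1), Synpo2 at 14 d (0 d replicate 3), Tpm2 at 1 d (0 d replicate 2), Tmod4 at 7 d (0 d replicates 1 and 4, 7 d replicates 2 and 4), Klhl40 at 28 d (0 d replicate 4), Klhl41 at 7 d (0 d replicate 4 or 7 d replicate 3), and, late against 3, 5 and 7 d, Obsl1 (7 d replicate 3) and Tpm2 (28 d replicate 4). Leaving out the 28 d samples was an alternative chosen after seeing the data. No paired analysis was possible because the columns of the table carry no replicate number that the labels tie to a sample. With 4 samples a group, a change under 1.5-fold was not counted as a call.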
